A study of Mus musculus with 10 samples.

Results

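The genes that a cell switches on when it senses type I interferon were followed in mouse mammary tumours grown from knockout and wild-type carcinoma cells. The set held 38 genes, chosen by symbol through the GENCODE M21 annotation of GRCm38, and all 38 had values among the 18047 genes of the normalized count table. The tumours grew for 3 weeks in BALB/c mice from implanted 4T1 cells, a line derived from a BALB/c mammary carcinoma. In the KO group (5 libraries, KO1 to KO5) the implanted 4T1 cells carried a gene knockout, and in the WT group (5 libraries, WT1 to WT5) they were wild-type. The mice themselves carried no stated alteration, so the knockout was in the implanted cells and not in host cells. The labels do not say whether the knockout line was 1 clone, give no age of the mice, and link no library to an animal. The p-values therefore rest on library-to-library spread alone, part of which may be technical. Whole frozen tumour sections were used, so each value sums carcinoma, immune, stromal and blood vessel cells, and fewer cells of a type and less RNA per cell cannot be told apart.

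Type I interferons, interferon alpha and beta, bind the receptor formed by Ifnar1 and Ifnar2 on nearly every cell type. The kinases Jak1 and Tyk2 then activate factors of the STAT family, Stat2 among them, which join Irf9 in a complex that binds the interferon-stimulated response element in the promoters of its targets. The targets include sensors of viral RNA, proteins that block viral replication, and the modifier Isg15, and in tumours the same genes are read as a trace of interferon made by dendritic cells, macrophages or the carcinoma cells. Interferon gamma, made by T and NK cells, acts through a different receptor, and its targets overlap with these.

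The response element was looked for in RefSeq promoter windows (GRCm38.p6, 250 bases before to 50 after the start of the gene), which were at hand for 29 of the 38 members. The letters GAAANNGAAA, searched on both strands with overlapping matches allowed, occurred in the windows of 17 of these 29 members (58.6%) and of 3.99% of all 27025 genes with a window. A match describes letters only and is no measured binding site, and no match says only that these letters are not in the window. The windows of Isg15, with 3 overlapping matches, and of Herc6, with none, are shown because they belong to the modifier at the centre of the set and to the member with the smallest p-value. Capitals mark the matched letters, and each sequence reads 5′ to 3′ along the strand of its gene.
Isg15, chr4:156200769-156201068, minus strand: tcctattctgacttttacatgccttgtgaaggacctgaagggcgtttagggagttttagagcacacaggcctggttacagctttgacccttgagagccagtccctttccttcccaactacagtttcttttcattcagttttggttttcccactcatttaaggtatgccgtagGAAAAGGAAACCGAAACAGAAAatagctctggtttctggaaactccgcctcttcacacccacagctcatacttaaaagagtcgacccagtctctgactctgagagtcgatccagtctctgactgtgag
Herc6, chr6:57580742-57581041, plus strand: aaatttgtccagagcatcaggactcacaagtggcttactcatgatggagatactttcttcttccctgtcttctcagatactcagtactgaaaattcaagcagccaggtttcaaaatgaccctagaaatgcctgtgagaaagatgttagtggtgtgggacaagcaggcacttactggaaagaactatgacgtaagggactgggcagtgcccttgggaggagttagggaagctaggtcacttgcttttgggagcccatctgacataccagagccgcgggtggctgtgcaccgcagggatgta

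Stretches of 60 bases around the matches are shown for 9 antiviral members, to set near copies and families beside each other. Capitals that begin with TTTC are matches on the opposite strand. Those of Ifit3 and Ifit3b are the same in every letter, and those of Oas1a and Oas1g differ near the 3′ end, outside the capitals.
Ifit1, chr19:34640769-34640828, plus strand: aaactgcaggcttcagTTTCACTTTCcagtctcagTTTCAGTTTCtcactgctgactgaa
Ifit3, chr19:34583365-34583424, plus strand: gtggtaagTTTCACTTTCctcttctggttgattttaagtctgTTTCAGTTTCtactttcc
Ifit3b, chr19:34607761-34607820, plus strand: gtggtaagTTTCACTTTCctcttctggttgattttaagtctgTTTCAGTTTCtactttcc
Oas1a, chr5:120907508-120907567, minus strand: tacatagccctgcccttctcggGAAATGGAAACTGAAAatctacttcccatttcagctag
Oas1g, chr5:120887594-120887653, minus strand: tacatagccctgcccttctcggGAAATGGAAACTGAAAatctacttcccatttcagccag
Oas3, chr5:120777700-120777759, minus strand: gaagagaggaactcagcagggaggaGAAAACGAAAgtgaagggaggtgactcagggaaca
Bst2, chr8:71537565-71537624, minus strand: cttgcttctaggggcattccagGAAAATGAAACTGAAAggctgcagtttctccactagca
Ifitm3, chr7:141010700-141010759, minus strand: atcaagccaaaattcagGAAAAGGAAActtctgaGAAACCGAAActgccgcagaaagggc
Rsad2, chr12:26456538-26456597, minus strand: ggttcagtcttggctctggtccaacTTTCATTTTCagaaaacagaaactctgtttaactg
The coding transcripts of Ifit3 and Ifit3b align over 1697 bases with 98.0% identity and those of Oas1a and Oas1g over 1857 bases with 97.85%, so their reads could be split between the copies by the counting and their single values are uncertain.

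Across the series, 8609756 to 19934428 reads lay behind the values of a library. All 10 libraries carried the batch label 1. Keratinocyte genes were high in WT2, WT3 and WT5, with summed levels of 8 markers at 675, 5890.1 and 3589 normalized counts, against 32.3 to 50.6 in KO and 45.7 and 34.0 in WT1 and WT4. The library names of KO5 and WT1 to WT4 carry the prefix RESUB, which the labels do not explain, and WT2 and WT5 share the number 170. The carcinoma markers were present in every library, at summed levels of 13153 to 18239 in KO and 18282 to 31684 in WT over 10 genes. Fitted values were below 0 for 10 of these 10 genes and 0 passed the test. However, 9 of them had a limma unadjusted p under 0.05 on the lower side, as did 3.67% of all genes. The highest KO sum lay below the lowest WT sum. The part of a smaller carcinoma share in the results below was not tested.

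No interferon-stimulated gene passed the test between KO and WT tumours. Of the 38 members 0 rose and 0 fell past an adjusted p of 0.05 in limma, which tests all 17975 genes together on log2 of the normalized count plus 1; the share called over all genes was 0% higher and 0.00556% lower. Herc6, on the higher side, was the 1 member with an unadjusted p below 0.05, a level that 2.82% of all genes reached on the higher side and 3.67% on the lower. edgeR and DESeq2 on the recovered reads also called 0 members. The fitted difference, KO minus WT on the log2 scale, was above 0 for 18 members and below 0 for 20, with a median of -0.018, and the median of all genes was -0.0073 with 49% above 0. The differences ran from -0.46 for Oas3 to 0.67 for Herc6, and 30 of the 38 were smaller than their own SE. The KO and WT libraries overlapped for all 38 members, while they did not overlap for 1.42% of all genes. The 95% interval of the difference lay within a 2-fold change in both directions for 35 members. It reached beyond that for Herc6 (0.13 to 1.22), Ifit3b (-1.02 to 0.52) and Oas3 (-1.40 to 0.49). Within the libraries with the RESUB prefix, where KO5 is the only KO library, the member median was 0.16. It was 0.055 within the others, where WT5 is the only WT library, and 0 members were called in either. In both of these fits the lone library is assumed to vary like those of the other group.

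**Figure D1:**
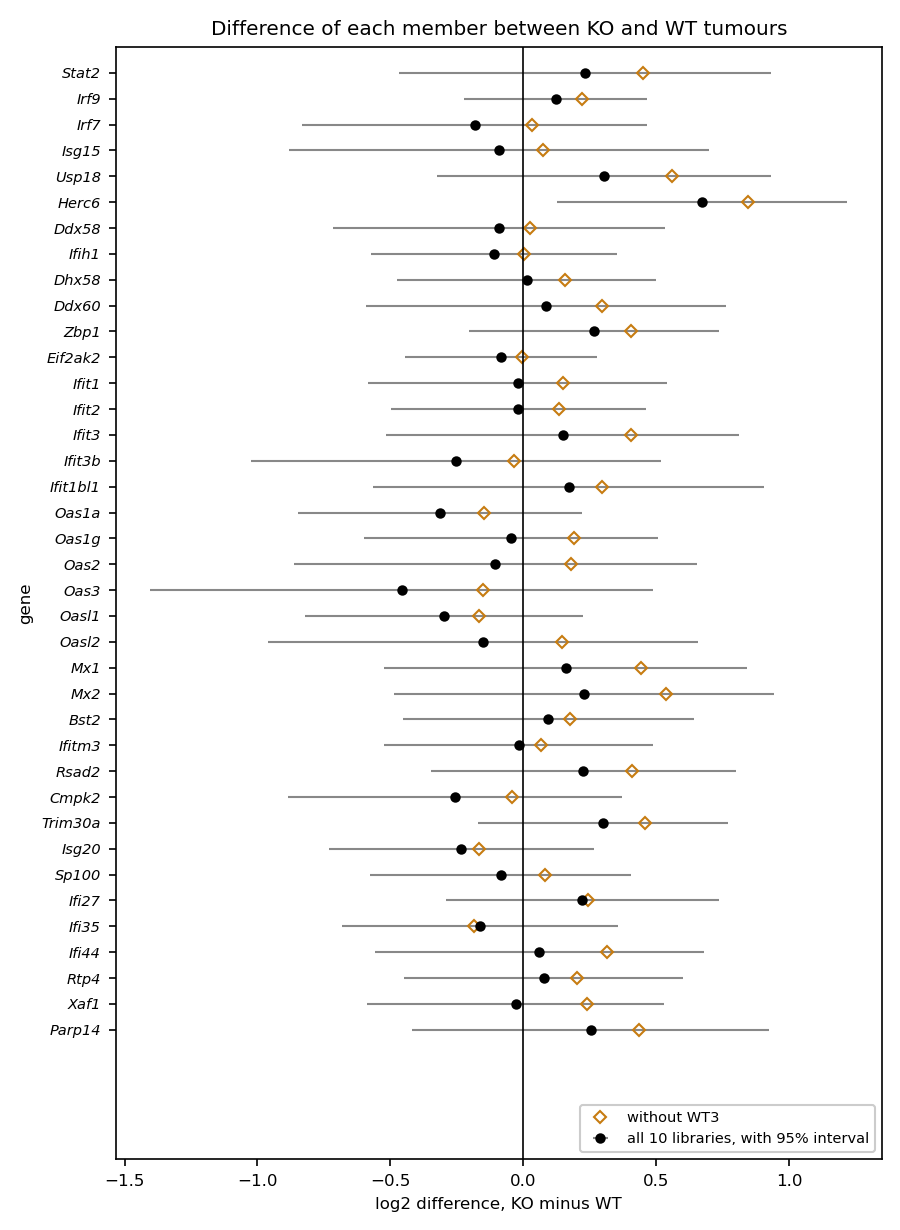
Difference of each of the 38 members between KO and WT tumours, in log2 units (KO minus WT) on the x axis, with genes grouped by role down the y axis. Black points and bars are the fitted difference and its 95% interval from all 10 libraries, and open diamonds the difference without WT3; every bar but that of Herc6 crosses 0, and 30 diamonds lie above 0 against 18 black points.

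The transcription factors that carry the signal overlapped between the groups. Stat2 (chr10:128270559-128292849, ENSMUSG00000040033), a factor of the activated complex, had 1198, 1091, 1455, 924 and 638 normalized counts in KO1 to KO5, against 609, 472, 1596, 1245 and 877 in WT1 to WT5 (log2 difference 0.23 ± 0.32 SE, limma adjusted p = 0.958). Irf9 (chr14:55603571-55610030), which brings that complex to DNA, had 826, 813, 922, 808 and 957 normalized counts in KO1 to KO5, against 774, 721, 1049, 812 and 660.2 in WT1 to WT5 (log2 difference 0.12 ± 0.16 SE, limma adjusted p = 0.956). Its spread was the smaller of the pair: the highest library was 1.59 times the lowest for Irf9 and 3.38 times for Stat2. Irf7 (chr7:141262706-141266481), which amplifies the response by driving interferon alpha genes, had 295, 411, 501, 377 and 512 normalized counts in KO1 to KO5, against 305, 406, 849.6, 709.6 and 296 in WT1 to WT5 (log2 difference -0.18 ± 0.30 SE, limma adjusted p = 0.964). WT3 was the highest of the 10 libraries for all 3 factors. Without WT3 the differences of Stat2, Irf9 and Irf7 were 0.45, 0.22 and 0.033, so that of Irf7 changed sign. Irf9 shares 123 exonic bases with Rnf31 on the same strand, so reads from that stretch cannot be told apart. Irf7 shares 45 with Phrf1 on the opposite strand, and with no strand setting stated those reads cannot be told apart either.

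Among the genes of the ISG15 system, Herc6 stood apart in its pattern. Herc6 (chr6:57581000-57664632, ENSMUSG00000029798), the ligase that attaches Isg15 to proteins in mice, had 1436, 1366, 1329, 1328 and 1335 normalized counts in KO1 to KO5, against 672, 605, 1378, 596 and 1339 in WT1 to WT5. The 5 KO libraries lay close together, with a coefficient of variation of 3.37%. The WT libraries fell in 2 sets, WT3 and WT5 at the KO level and WT1, WT2 and WT4 below every KO library. Its group means were 1359 ± 45.8 in the KO libraries and 918 ± 404 in the WT libraries (SD, n = 5 each). The log2 difference was 0.67 ± 0.25 SE (limma unadjusted p = 0.0194, adjusted p = 0.688), and Herc6 ranked 507th by p among all genes tested. The two-sided exact permutation p of its mean log2 level was 0.111, where 5 against 5 libraries allow no p below 0.0079. WT3 and WT5 are also the libraries with the most keratinocyte RNA, and without WT2, WT3 and WT5 the difference was 1.10 (limma adjusted p = 0.307). It was 0.81 ± 0.52 (SE) within the libraries with the RESUB prefix, where KO5 is the only KO library, 0.026 ± 0.20 within those without it, where WT5 is the only WT library, and 0.42 with the prefix as a term. Over all alternatives the limma, edgeR and DESeq2 adjusted p of Herc6 ran from 0.307 to 0.999. The part of keratinocyte RNA or of the prefix in this pattern was not tested. Herc6 shares 1269 exonic bases on the same strand with Gm45193, a noncoding transcript not analysed here, so reads from that stretch cannot be told apart.

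Isg15 (chr4:156199424-156200818), the ubiquitin-like modifier, had 152, 234, 186, 282 and 509 normalized counts in KO1 to KO5, against 234, 343, 419, 320.0 and 121 in WT1 to WT5 (log2 difference -0.091 ± 0.37 SE, limma adjusted p = 0.982). KO5 was its highest library and WT5 its lowest, and the other 8 libraries were mixed between the groups. Usp18 (chr6:121245906-121270917), which removes Isg15 from proteins and dampens signalling at the receptor, had 471, 337, 539, 438 and 363 normalized counts in KO1 to KO5, against 363, 186, 694, 348 and 289 in WT1 to WT5 (log2 difference 0.31 ± 0.29 SE, limma adjusted p = 0.935). For Usp18 WT3 was the highest library and WT2 the lowest, and without WT3 the difference was 0.56.

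**Figure D2:**
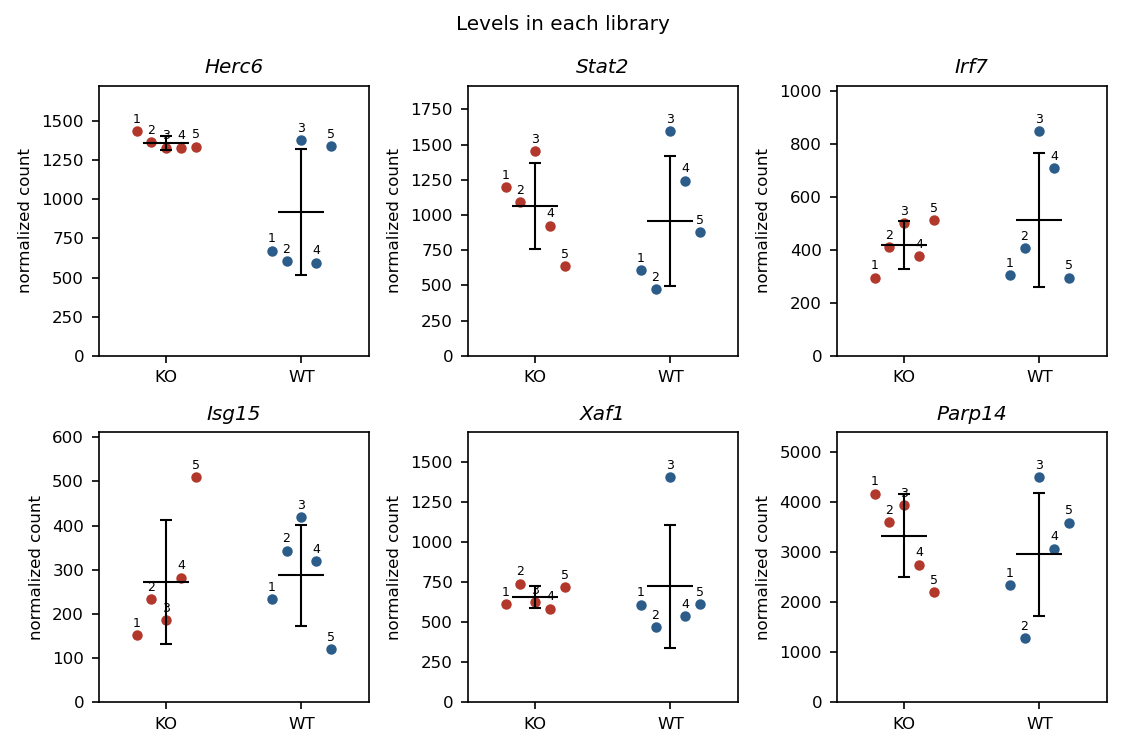
Normalized counts (y axis, from 0) of 6 members in each library, KO left of WT, with replicate numbers above the points, a line at the mean and bars of 1 SD (n = 5 each). Herc6 is flat in KO at 1328 to 1436 and split in WT, Xaf1 is high in WT3 only among the WT libraries, and KO5 is the highest KO library for Isg15 and the lowest for Parp14.

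The sensors of foreign nucleic acid were evenly split, with 3 of 6 members above 0 and 3 below, and 0 passed the test. Zbp1, a sensor of Z-form nucleic acid that can trigger necroptosis, had the largest value, with 906, 1381, 1211, 1247 and 1486 normalized counts in KO1 to KO5, against 677, 976, 1505, 1156 and 971 in WT1 to WT5 (log2 difference 0.27 ± 0.22 SE, limma adjusted p = 0.904). Ifih1, which encodes the RNA sensor MDA5, had the lowest, with 991, 736, 906, 763 and 704 normalized counts in KO1 to KO5, against 839, 539, 1207, 904 and 1057 in WT1 to WT5 (log2 difference -0.11 ± 0.21 SE, limma adjusted p = 0.971). All 6 sensors were highest in WT3 and 5 were lowest in WT2. Ddx60, a helicase that assists these sensors and the most abundant of them by normalized count, had 1931, 1160.1, 1759, 1497 and 1019 normalized counts in KO1 to KO5, against 1399.6, 675, 2419, 1055 and 1847 in WT1 to WT5 (log2 difference 0.087 ± 0.31 SE, limma adjusted p = 0.981). The remaining 3 had values of 495 to 1074 in KO and 417 to 1144 in WT for Ddx58, which encodes RIG-I, 199.9 to 253 in KO and 163.9 to 331 in WT for Dhx58, which encodes LGP2, and 1064 to 1412 in KO and 1036 to 1657 in WT for Eif2ak2, which encodes the translation-blocking kinase PKR. Their log2 differences were -0.092, 0.014 and -0.084.

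The IFIT genes, whose proteins bind the ends of foreign RNA, lie side by side on chromosome 19, and 2 of 5 were above 0, 3 below and 0 past the test. Ifit3b had 36.4, 54.4, 92.8, 60.3 and 125 normalized counts in KO1 to KO5, against 56.5, 58.3, 149, 71.7 and 96.4 in WT1 to WT5 (log2 difference -0.25 ± 0.36 SE, limma adjusted p = 0.958). Its near copy Ifit3 had 124, 181, 186, 178 and 328 normalized counts in KO1 to KO5, against 133, 127, 349, 155 and 159.5 in WT1 to WT5 (log2 difference 0.15 ± 0.31 SE, limma adjusted p = 0.972). The 2 copies were both highest in WT3 and next highest in KO5, and both lowest in KO1. Ifit1bl1, a mouse paralogue of Ifit1, was close to the limit of what was tested, at 12.6, 18.8, 14.1, 12.3 and 15.7 normalized counts in KO1 to KO5, against 8.31, 20.04, 18.4, 10.9 and 9.97 in WT1 to WT5 (log2 difference 0.17 ± 0.34 SE, limma adjusted p = 0.972). Ifit1 ranged from 256 to 629 in KO and 299 to 660.3 in WT and Ifit2 from 379 to 717 in KO and 399.8 to 787 in WT, with log2 differences of -0.021 and -0.019.

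The OAS genes, whose enzymes make the oligoadenylates that activate RNase L, had fitted values below 0 for 6 of the 6 in the set, with a median of -0.22 and 0 past the test. Outside the set, Oas1b was at 0.059 and Oas1c at -0.11 (log2 differences). Oas3, which needs long RNA to be active, had 310.4, 160.4, 262, 175 and 127 normalized counts in KO1 to KO5, against 155, 114, 633, 501 and 255 in WT1 to WT5 (log2 difference -0.46 ± 0.44 SE, limma adjusted p = 0.936). WT3 and WT4 were its 2 highest libraries and the other 3 WT libraries lay within the KO range or below it. Oas1a had 271, 185, 326, 265 and 369 normalized counts in KO1 to KO5, against 260.1, 361, 539, 379 and 247 in WT1 to WT5 (log2 difference -0.31 ± 0.25 SE, limma adjusted p = 0.9), and its near copy Oas1g 209.7, 147, 224, 181 and 171.1 normalized counts in KO1 to KO5, against 151, 161, 369, 194 and 143 in WT1 to WT5 (log2 difference -0.045 ± 0.26 SE, limma adjusted p = 0.985). Oasl1, an OAS-like protein that restrains translation of Irf7 in mice, had 131, 107, 149, 112 and 113 normalized counts in KO1 to KO5, against 128, 113, 216, 222 and 109 in WT1 to WT5 (log2 difference -0.30 ± 0.24 SE, limma adjusted p = 0.904), with WT3 and WT4 again above all others. Oas2, a further synthetase, had 231, 174, 366, 178 and 108 normalized counts in KO1 to KO5, against 156, 156, 461, 175 and 206 in WT1 to WT5 (log2 difference -0.10 ± 0.35 SE, limma adjusted p = 0.979), and Oasl2, the other OAS-like gene, ranged from 727 to 1400.5 in KO and 560.1 to 2552 in WT (-0.15). Without WT3, 3 of these 6 members were above 0 and the median was -0.00087, with Oas1a (-0.15), Oas3 (-0.15) and Oasl1 (-0.17) still below 0. Oas1g, Oas2 and Oasl2 each changed sign in 2 of the fits that left out 1 library, the fit without WT3 among them. With all libraries Oas1g alone of the 6 turned above 0 under upper quartile scaling (0.0081) and with GC and length trends removed (0.021). Other fits on all libraries turned more of them. With a score of the keratinocyte markers as a covariate Oas1g, Oas2 and Oasl2 were above 0, and with the RESUB prefix as a term Oas1a and Oas1g were.

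Mx1 and Mx2 encode dynamin-like GTPases that block viruses, and laboratory strains such as BALB/c carry defective copies that are still transcribed. Mx1 had 96.5, 129, 187, 125 and 108 normalized counts in KO1 to KO5, against 102, 69.2, 249, 84.7 and 121 in WT1 to WT5 (log2 difference 0.16 ± 0.32 SE, limma adjusted p = 0.972). Mx2 had 120.2, 93.8, 136, 103 and 97.8 normalized counts in KO1 to KO5, against 75.6, 56.5, 221, 63.7 and 115 in WT1 to WT5 (log2 difference 0.23 ± 0.33 SE, limma adjusted p = 0.959). In both, WT3 was above every other library and WT2 was at the bottom, and without WT3 the differences were 0.44 and 0.54.

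Genes of restriction factors at membranes, in nucleotide pools and in the nucleus split 3 above 0 and 4 below, and 0 passed. Ifitm3, which blocks fusion of viruses with endosomes, was the member with the most counts, with 2317, 4044, 2847, 3776 and 4851 normalized counts in KO1 to KO5, against 3175, 4005, 4393, 3813 and 2434 in WT1 to WT5 (log2 difference -0.017 ± 0.23 SE, limma adjusted p = 0.993). Per kilobase of exon it was also the most abundant, at a level of 5259 normalized counts per kilobase over all libraries, against 1289 for Bst2, the next, and 6.24 for Ifit1bl1, the least. Trim30a, a mouse TRIM protein that dampens innate signalling, had 980.1, 1065, 1101, 1019.9 and 861 normalized counts in KO1 to KO5, against 687, 557, 1262, 700.1 and 1047 in WT1 to WT5 (log2 difference 0.30 ± 0.22 SE, limma adjusted p = 0.891). Its KO libraries were close together, and WT3 and WT5 lay above or among them while WT1, WT2 and WT4 lay below all 5, the division of the WT libraries that Herc6 also had. Isg20, an exonuclease, had 236, 271, 269, 326 and 460.1 normalized counts in KO1 to KO5, against 347, 504, 429, 259 and 299 in WT1 to WT5 (log2 difference -0.23 ± 0.23 SE, limma adjusted p = 0.94), with WT2 highest. Cmpk2, a nucleotide kinase of mitochondria, had 88.1, 158, 127, 167.6 and 186 normalized counts in KO1 to KO5, against 116, 117, 306, 182 and 177 in WT1 to WT5 (log2 difference -0.26 ± 0.29 SE, limma adjusted p = 0.951). Its neighbour on chromosome 12, Rsad2, which encodes viperin, ranged from 139 to 306 in KO and 124 to 291 in WT (0.23). Bst2, which encodes tetherin, ranged from 738 to 1806 in KO and 739.9 to 1434 in WT (0.094), and Sp100, of nuclear bodies, from 629 to 965 in KO and 607 to 1385 in WT (-0.084).

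Of the 6 remaining members 4 were above 0 and 2 below. Parp14, an ADP-ribosyltransferase, had 4172, 3595, 3939.8, 2754 and 2205 normalized counts in KO1 to KO5, against 2336, 1283, 4494, 3074 and 3591 in WT1 to WT5 (log2 difference 0.25 ± 0.31 SE, limma adjusted p = 0.952). Ifi44 had 1284, 1319, 1493, 1509 and 1730.3 normalized counts in KO1 to KO5, against 1147, 756, 2829, 1267 and 1718 in WT1 to WT5 (log2 difference 0.061 ± 0.29 SE, limma adjusted p = 0.983). Xaf1, a partner of the caspase inhibitor XIAP, had 611, 741, 624, 584 and 720.2 normalized counts in KO1 to KO5, against 608, 467, 1402, 536 and 613 in WT1 to WT5 (log2 difference -0.028 ± 0.26 SE, limma adjusted p = 0.99), and WT3 alone exceeded the KO range. Ifi35, which pairs with Nmi, had 278, 396, 339, 515 and 705 normalized counts in KO1 to KO5, against 454, 621, 444, 481 and 394 in WT1 to WT5 (log2 difference -0.16 ± 0.24 SE, limma adjusted p = 0.961), with KO5 highest and KO1 lowest. Ifi27 ranged from 633 to 1474 in KO and 585 to 1005 in WT and Rtp4, a chaperone of receptors, from 399.9 to 851 in KO and 370.0 to 772 in WT, with log2 differences of 0.22 and 0.077.

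The larger contrast lay between libraries of 1 genotype. WT3 held the highest value of 27 of the 38 members (71.1%), against 12.3% of all genes tested. Its level was 1.73 times the mean of the other 4 WT libraries at the median over members (range 0.91 to 2.85), against 0.947 times over all genes. WT2 was lowest for 17 members (44.7%, against 18.4% of all genes), and KO1 for 10 (26.3%, against 9.66% of all genes). Muscle RNA was highest in WT2, where 8 muscle markers summed to 99915 normalized counts, with sums of 19.7 to 4794 in KO and 38.8 to 99915 in WT, and its part in the low levels of WT2 was not tested. Averaged over the 38 members, the log2 level was 8.80 ± 0.12 in KO libraries (8.66 to 8.93) and 8.79 ± 0.43 in WT libraries (8.41 to 9.49; SD, n = 5 each). The coefficient of variation was larger in WT than in KO for 30 of 38 members, and for 70.4% of all genes, so a wider WT group was general in these libraries. Without WT3 it was larger in WT for 22 members and for 65.1% of all genes.

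WT3 also differed from the others in its cell markers. The 8 keratinocyte markers summed to 5890.1 normalized counts in WT3, the most of any library, and 6 of the 8 were at 0 in at least 1 library. The summed level of 8 neutrophil markers ran over 2849.6 to 4739.9 in KO and 2286 to 6018 in WT and was highest in WT3, with WT4 close behind at 5902. The single markers were divided: S100a8, S100a9, Cxcr2 and Csf3r, 4 of the 8, were highest in WT3, whereas Retnlg was highest in WT2, Ly6g in KO3, Mmp9 in WT4 and Trem1 in KO5. Mmp9 made up much of the sum, at 2991 in WT3 and 5014 in WT4. The sum of 8 macrophage markers was lowest in WT3, over 16342 to 22628 in KO and 10238 to 23742 in WT, and 6 of the 8 were lowest there, the exceptions being Csf1r and Cd68. For the 7 fibroblast markers the sum in WT3, 35426, was close to that in KO5, 36925, and 3 of the 7 (Col3a1, Dcn and Lum) were lowest in WT3. The 8 markers listed for plasmacytoid dendritic cells, known as strong producers of interferon alpha, summed to 7408 to 9184 in KO and 6212 to 10724 in WT, with 0 of them at 0 in any library. Most of that sum was Tcf4, at 6265 to 8169 in KO and 3936 to 9832 in WT, and Cox6a2 reached 1108 in WT2, the library with the most muscle RNA, so the sum does not follow these cells. Siglech was low throughout, at 15.7 to 24.5 in KO and 6.65 to 30.1 in WT (log2 difference 0.049). Ccr9 was at 34.9 to 69.9 in KO and 19.5 to 55.3 in WT (log2 difference 0.83 ± 0.30 SE, limma adjusted p = 0.674). The part of these cell types in the interferon-stimulated levels of WT3 was not tested. Without WT3, 30 of the 38 members were above 0, with a median of 0.18, against 48.6% of all genes above 0. At a limma unadjusted p under 0.05 there were 4 members, all on the higher side, where 701 of 17797 genes were. In that fit limma still called 0 members (lowest adjusted p = 0.400). Without WT2, WT3 and WT5, 25 members were above 0 with a median of 0.12, against 47.5% of all genes, and again 0 were called (lowest adjusted p = 0.307). With the muscle score as a covariate 12 members were above 0 and 26 below, against 47.6% of all genes above 0. Of the members below 0, 3 had a limma unadjusted p under 0.05, as did 953 of 17975 genes on the lower side. With this covariate limma called 0 members (lowest adjusted p = 0.288).

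**Figure D3:**
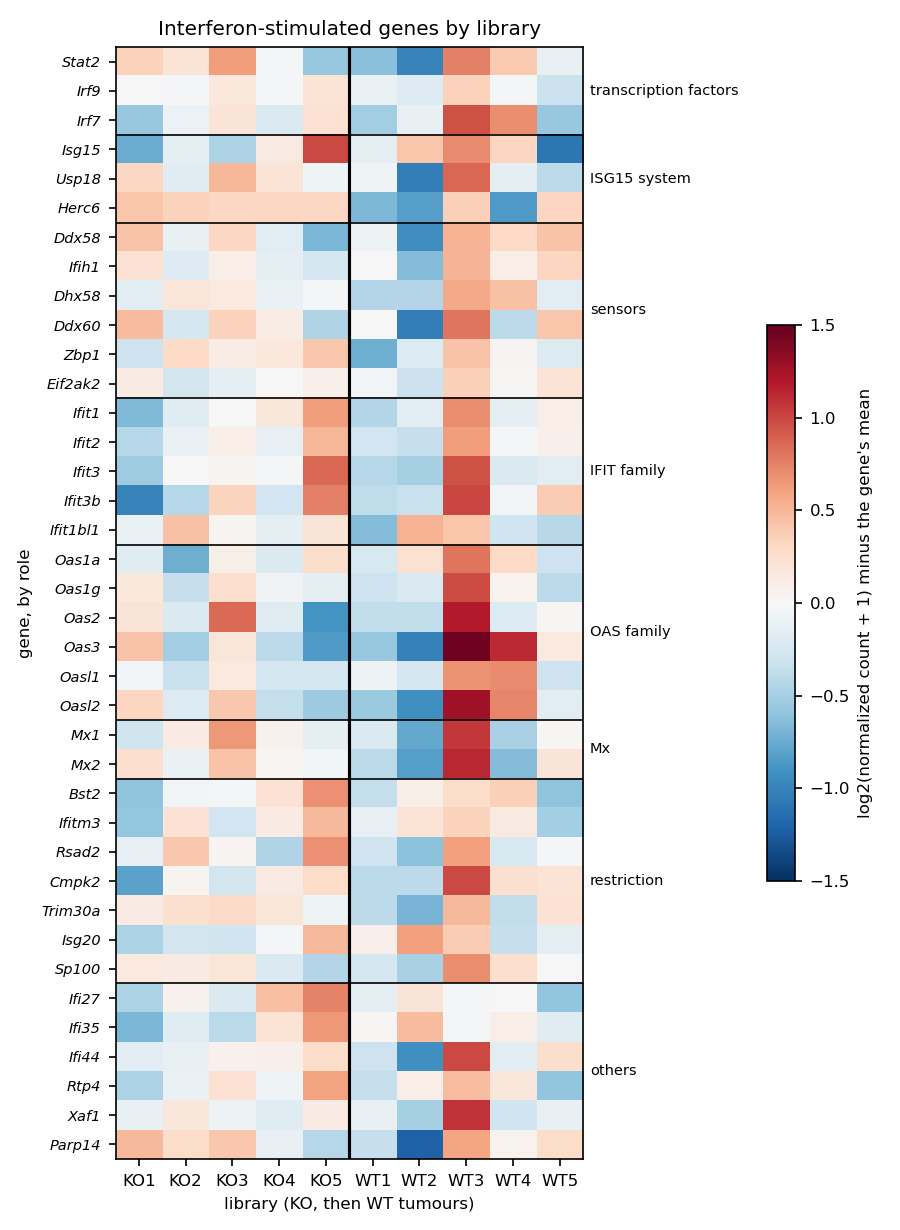
Log2 level of each member in each library minus the mean of that gene over the 10 libraries (colour), with KO libraries left of the line, WT libraries right of it and genes in rows by role. The column of WT3 is above the mean in 36 of 38 rows and that of WT1 in 3 of 38, while no row separates KO from WT.

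Long and short members moved apart in some libraries. In KO1 and WT5 the level of a member relative to its own mean went up with its exonic length (Pearson r = 0.73 and 0.73 over the 38 genes, a description across genes that share a library). In KO5 and WT2 it went down (r = -0.68 and -0.77). Parp14, the longest at 9306 bases, was low in KO5 and WT2, while Isg15 at 756 bases and Ifitm3 at 678 bases were high in KO5. Less steeply, KO3 (r = 0.53) and WT3 (r = 0.31) leaned up with length and KO4 (r = -0.32) down. Slopes of the same sign were present over 10367 protein-coding genes averaging 100 or more normalized counts, at r = 0.55 in KO1, 0.41 in WT5, -0.45 in KO5 and -0.47 in WT2. In KO3, KO4 and WT3 the slopes over these genes were at r = 0.23, -0.41 and 0.22. Over all tested genes with a length they were weaker, at r = 0.051 in KO1, 0.13 in WT5, -0.15 in KO5 and -0.056 in WT2. KO1, KO5, WT2 and WT5, the 4 libraries with the steepest slopes over the members, fall 2 in each genotype. Of the 19 longer members 9 were above 0 in KO minus WT, as were 9 of the 19 shorter. With trends of GC content and length removed from each library the member median was 0.018 and 0 members were called. In that fit 20 members were above 0, against 56.2% of all genes, and WT3 was still the highest library for 26 members (12.3% of all genes). Pearson r with GC content over the members was -0.23 in KO1, 0.033 in KO5, 0.41 in WT2, 0.54 in WT4 and -0.62 in WT5. Over all tested genes with a length it was -0.29, -0.029, 0.18, 0.52 and -0.40 in the same libraries. How the length and GC trends arose, and the part of each in single members, was not tested.

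**Figure D4:**
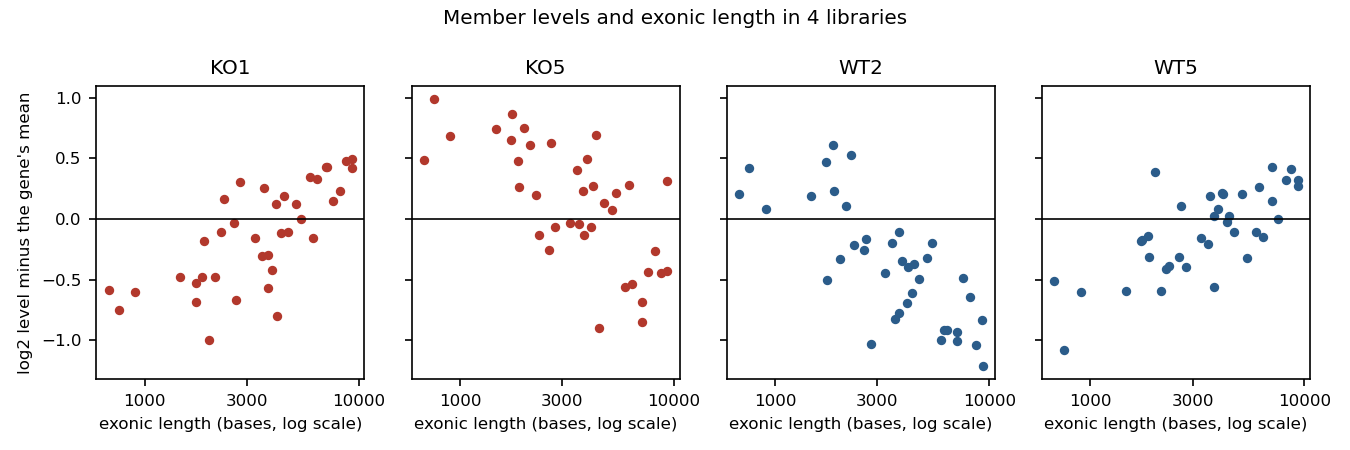
Log2 level minus the mean of the gene (y axis) against exonic length in bases (x axis, log scale) for the 38 members, in KO1, KO5, WT2 and WT5. Points rise with length in KO1 and WT5 and fall with length in KO5 and WT2, with 1 library of each genotype in each direction.

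Genes upstream of the members were next. Of 19 ligand genes listed, Ifnk, an interferon first known from keratinocytes, was analysed here, and it had 51.7, 46.0, 54.8, 9.2 and 6.11 normalized counts in KO1 to KO5, against 34.9, 14.6, 80.6, 36.2 and 47.6 in WT1 to WT5 (log2 difference -0.61 ± 0.63 SE, limma adjusted p = 0.947); the other 18 were not analysed here. Its highest library was WT3, which also had the most keratinocyte RNA. KO1, KO2 and KO3, at 51.7, 46.0 and 54.8 for Ifnk, had keratinocyte marker sums of 33.6, 39.4 and 50.6. WT2 and WT5, at 14.6 and 47.6, had sums of 675 and 3589. The part of keratinocyte RNA in the level of Ifnk was not tested. The receptor chain Ifnar1 had 1402, 1331, 1218, 1420.4 and 1510.3 normalized counts in KO1 to KO5, against 1137, 1323, 1049, 1476 and 1349 in WT1 to WT5 (log2 difference 0.13 ± 0.15 SE, limma adjusted p = 0.951). The second chain, Ifnar2, had 580.2, 788, 716, 669 and 714 normalized counts in KO1 to KO5, against 539, 601, 444, 640.0 and 554 in WT1 to WT5 (log2 difference 0.32 ± 0.16 SE, limma adjusted p = 0.786), and the two-sided exact permutation p of its mean log2 level was 0.0238 before any adjustment. Its groups overlapped. Of the 10 receptor and signalling genes 6 were above 0 and 4 below, with a median of 0.13 and 0 past the test, among them the phosphatase gene Ptpn11 at -0.26 (limma adjusted p = 0.887).

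Of 13 genes that detect nucleic acids and induce interferon, 7 were above 0 and 6 below, with a median of 0.028, and 0 passed. Ikbke, a kinase that activates Irf3 and Irf7, had 568, 532, 649.6, 504 and 477 normalized counts in KO1 to KO5, against 386, 333, 463, 421 and 357 in WT1 to WT5. Every KO library lay above every WT library, as for 0.684% of all genes tested, but the adjusted p missed the threshold (log2 difference 0.48 ± 0.16 SE, limma adjusted p = 0.616). Tlr7, an endosomal RNA receptor, had 279.6, 294, 285, 306 and 326 normalized counts in KO1 to KO5, against 199, 313, 142, 140.5 and 210.5 in WT1 to WT5 (log2 difference 0.63 ± 0.22 SE, limma adjusted p = 0.674). Irf3, the factor that starts interferon beta transcription, had 418, 447, 517, 568 and 507 normalized counts in KO1 to KO5, against 386, 474, 382, 377 and 344 in WT1 to WT5 (log2 difference 0.32 ± 0.16 SE, limma adjusted p = 0.785). Among 54 further interferon-stimulated genes outside the set 35 were above 0 and 19 below, with a median of 0.12, and 0 passed. The 3 with the smallest p were Phf11b (345 ± 145 in KO and 195 ± 38.0 in WT, log2 difference 0.73), the ADP-ribosyltransferase Parp11 (824 ± 97.7 in KO and 601 ± 227 in WT, 0.52) and Slfn1 (153 ± 22.9 in KO and 109 ± 27.0 in WT, 0.51; SD, n = 5). WT3 was highest for 8 of these 54.

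Beside these, genes known best as targets of interferon gamma had mostly fitted values above 0, and 0 of them passed the test. All 11 guanylate-binding protein genes were above 0, with a median of 0.57, and all 7 immunity-related GTPase genes were, with a median of 0.58. Over all genes 49% were above 0. On the higher side 5 of the 11 and 4 of the 7 had a limma unadjusted p under 0.05, as did 2.82% of all genes. By smallest p, the leading log2 differences among the guanylate-binding proteins were those of Gbp8 (0.93), Gbp5 (0.71) and Gbp2b (0.57), and among the GTPases to Iigp1 (1.01), Tgtp2 (0.64) and Irgm1 (0.59). In a list of interferon gamma signalling and CXCR3 chemokine genes 10 of 13 were above 0, with a median of 0.27. Of these 13, 2 had a limma unadjusted p under 0.05, on the higher side. The smallest p were those of the chemokine genes Cxcl9 (1.08, limma adjusted p = 0.418) and Cxcl10 (0.56) and of Ifng itself (0.89 ± 0.48 SE, limma adjusted p = 0.823). Ifng was near the filter of 10, at 8.44 to 46.3 normalized counts in KO and 7.96 to 25.2 in WT. Those below 0 were Cxcr3 (-0.39), Jak2 (-0.15) and Ifngr1 (-0.12). Markers of T cells (8 genes) summed to 434 to 1007 in KO and 272 to 609.6 in WT and those of NK cells (6 tested genes) to 203 to 375 in KO and 164.6 to 215 in WT, highest in KO5 in both cases. Fitted values were above 0 for 8 of the 8 T cell markers but for 3 of the 6 NK markers, with Klrc1 at 1.33 and Klrd1 at 1.05 against Ncr1 at -0.18, Gzma at -0.29 and Eomes at -1.15, and 0 of the 14 passed the test. Eomes was lower in every KO library than in every WT library, as were 0.734% of all genes. The part of these cells in the values above was not tested. The members' median of -0.018 and these medians come from the same 10 libraries, and the difference between the lists was not tested. WT3 was the highest of all 10 libraries for 4 of the 11 and 0 of the 7, against 27 of the 38 members. Among the WT libraries alone, however, WT3 was the highest for every guanylate-binding protein and immunity-related GTPase gene except Gbp7 and Irgm2. Iigp1, for example, was at 5099 in WT3 against 2532, 2356, 2485 and 3256 in WT1, WT2, WT4 and WT5. WT2 was the lowest of all libraries for 10 of the 11 and 4 of the 7, against 17 of the 38 members. The interferon gamma list and the list of receptors and signalling have genes in common, Socs1 among them.

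**Figure D5:**
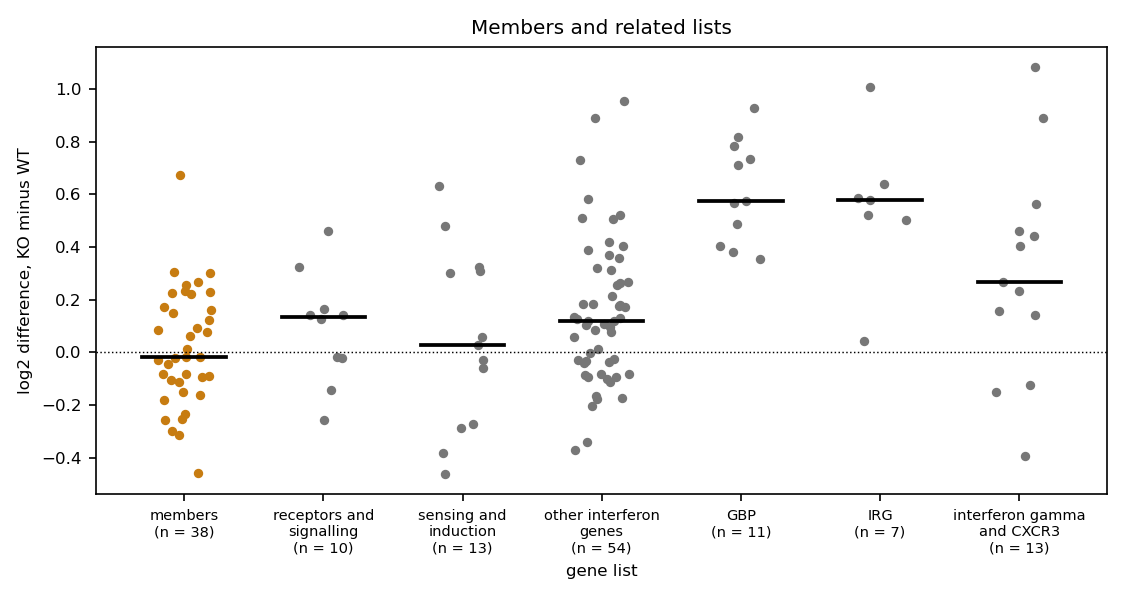
Log2 difference (KO minus WT, y axis) of every tested gene in the member set and in 6 related lists (x axis), with a black bar at the median of each list. The members centre on -0.018, and the GBP and IRG lists (guanylate-binding proteins and immunity-related GTPases) on 0.57 and 0.58.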

How the data were processed

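The authors deposited a table of normalized read counts (a signal value per gene) for 18047 Ensembl genes in 10 libraries of total RNA, freed of DNA and ribosomal RNA per the labels' protocols. Per the submitters' processing notes, bcl2fastq 2.17 and the build GRCm38 were used. The aligner, counter, strand setting and use of molecular identifiers are not given in the sources used here. Every value (100%) came out as a whole number of reads, to a tolerance of 0.01, so reads were recovered for count tests, in which edgeR called 1 gene and DESeq2 121. Intervals from reads would cover counting error only. WT2 and WT5, which share a number, differed beyond sampling noise (chi-square per degree of freedom 147.4) and were kept apart. Every pair of WT libraries did so, at 39.03 to 182.5, so this value cannot tell whether WT2 and WT5 came from 1 animal. If they did, they are not independent.

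The test was limma 3.58.1 in R 4.3.3, with its intensity trend, on log2(value + 1) of the 17975 genes averaging 10 or more (72 fell below), Benjamini-Hochberg adjusted over all of them at 0.05; fold changes on this scale understate those of low genes. edgeR 4.0.16 (with TMM factors) and DESeq2 1.42.0 were alternatives. On simulated counts for 17975 genes, 5 against 5, with 200 changed in 3 runs, the limma step recovered 20.3% of log2 changes of 1 and 77.7% of those of 2, with 5.31% false among those called. Members, lists and alternatives were chosen with earlier results of these data known; the GC and length correction was added after seeing the data. Values in every library are given for the 8 members with the smallest p, the 4 most abundant, Stat2, Irf9 and Irf7 and the highest and lowest of each role; Oas2, Xaf1 and Ifit3 were added after their values were seen. Of the pathway lists, receptors, ligands and the 3 genes with the smallest p are named, with an exception. A check of the labels and a gene of the pathway lists are not reported here. Exonic overlap with another gene was found for 11 members. Figures were drawn with matplotlib 3.10.9.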

Additional observations from a re-analysis of the deposited data

Results flagged for a closer look

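Of 76 groups of 5 libraries checked (38 members, 2 genotypes), 3 had 1 library far from the other 4, by a gap of more than 0.71 of the range of the group on the log2 scale. Chance alone gives this in about 5% of such groups. All 3 were WT3. Ifit3 stood at 348.6 normalized counts in WT3, against 127 to 159.5 in the other WT libraries. Oas2 stood at 461.2 in WT3, against 156 to 206 in the others. Xaf1 stood at 1402 in WT3, against 467 to 613 in the others. In each case the gap was 0.743 to 0.772 of the range. No KO library stood apart in this way for any of the 38 members.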

How the results depend on the processing

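In all 28 alternatives 0 members were called, and the lowest adjusted p of any member was 0.288. The member median ran from -0.11 with the muscle score as a covariate to 0.19 with the keratinocyte score. In these fits 12 and 30 members were above 0, against 47.6% and 47.5% of all genes. Each shift of the median was smaller than the pooled SD of the member mean between single libraries. That SD is wider than the SE of a group difference, so it does not show that the median was unchanged. The count over all genes, 1 in limma as reported, was 121 in DESeq2, 26 within the libraries without the RESUB prefix, 62 with the muscle score and 0 without the 3 WT libraries with keratinocyte RNA, with the pair numbered 170 averaged, within the prefixed libraries and with the keratinocyte score; leaving out 1 library gave 0 to 3, with 3 without WT2 and 0 without KO1, KO2, KO3, WT3, WT4 or WT5. The labels do not say that replicate numbers pair the samples, and deviations of same-numbered libraries correlated at 0.017, 0.099, 0.52, 0.026 and -0.23. With the replicate block 1 gene and 0 members were called, as without it, and 1 of the 5 KO libraries correlated best with its own number. Upper quartile scaling moved the median of all genes to 0.045 and put 23 members above 0, and 56.2% of all genes.

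Most members were closer to 0 than their SE, and 139 of 1063 single values had the other sign (7 members in 0 alternatives); the cause was not tested. With upper quartile scaling these were Ifit1 0.032, Ifit2 0.034, Oas1g 0.0081, Ifitm3 0.036 and Xaf1 0.025. In edgeR they were Dhx58 -0.041, Ddx60 -0.0027, Ifitm3 0.0061 and Ifi44 -0.068, and in DESeq2 Dhx58 -0.047, Ddx60 -0.0067, Ifitm3 0.00069 and Ifi44 -0.074. Without the 3 WT libraries with keratinocyte RNA they were Ifit1 0.28, Ifit2 0.15, Ifit3b 0.081, Oas1g 0.11, Oas2 0.24, Isg20 0.019 and Xaf1 0.19. With the pair numbered 170 averaged they were Dhx58 -0.062, Ddx60 -0.025 and Ifi44 -0.042. With the RESUB prefix as a term they were Stat2 -0.027, Irf7 0.18, Isg15 0.72, Ddx60 -0.27, Ifit1 0.18, Ifit2 0.14, Oas1a 0.022, Oas1g 0.069, Ifitm3 0.36, Isg20 0.086, Ifi35 0.21, Xaf1 0.070 and Parp14 -0.10. Within the prefixed libraries they were Stat2 -0.45, Isg15 0.66, Dhx58 -0.064, Ddx60 -0.29, Eif2ak2 0.070, Ifit1 0.64, Ifit2 0.50, Ifit3b 0.69, Mx1 -0.030, Ifitm3 0.34, Cmpk2 0.16, Isg20 0.30, Ifi35 0.51, Xaf1 0.083 and Parp14 -0.20, and within the others Irf7 0.39, Isg15 0.78, Ddx60 -0.24, Oas1a 0.054, Oas1g 0.39, Oas2 0.13, Oasl1 0.19, Oasl2 0.19, Mx2 -0.037, Ifitm3 0.38, Rsad2 -0.0017, Trim30a -0.0086, Sp100 0.056, Ifi44 -0.30, Xaf1 0.057 and Parp14 -0.0079. With the keratinocyte score they were Ddx58 0.023, Ifih1 0.035, Eif2ak2 0.048, Ifit1 0.36, Ifit2 0.25, Ifit3b 0.22, Oas1g 0.20, Oas2 0.37, Oasl2 0.061, Cmpk2 0.091, Sp100 0.078 and Xaf1 0.33, and with the muscle score Stat2 -0.053, Dhx58 -0.12, Ddx60 -0.17, Ifit3 -0.0013, Mx1 -0.10, Mx2 -0.053, Ifitm3 0.014 and Ifi44 -0.15. With GC and length trends removed they were Oas1g 0.021 and Xaf1 0.015. Leaving out 1 library in turn gave ranges of Irf7 -0.35 to 0.033, Isg15 -0.37 to 0.085, Ddx58 -0.34 to 0.068, Ifih1 -0.29 to 0.0038, Dhx58 -0.096 to 0.16, Ddx60 -0.16 to 0.30, Ifit1 -0.18 to 0.15, Ifit2 -0.15 to 0.14, Ifit3 -0.048 to 0.41, Oas1g -0.15 to 0.19, Oas2 -0.33 to 0.18, Oasl2 -0.40 to 0.15, Mx1 -0.014 to 0.44, Bst2 -0.066 to 0.26, Ifitm3 -0.15 to 0.13, Sp100 -0.22 to 0.081, Ifi44 -0.16 to 0.32, Rtp4 -0.065 to 0.21, Xaf1 -0.16 to 0.24 and Parp14 -0.017 to 0.44. Depth limits Ifit1bl1, at 8.31 to 20.04 normalized counts per library.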
